A study of Mus musculus with 4 samples.

Results

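The 37 genes described here encode sarcomere proteins and their isoforms: myosin heavy and light chains, troponins, actins, tropomyosins, myosin-binding proteins, titin and proteins of the Z-disc and M-band. They were chosen by symbol, and all 37 were found among the 32285 genes counted in single cells (10x Genomics droplets) of whole cardiogenic regions dissected from mouse embryos at E10.5. There were 4 libraries, of which 5 and 7 came from control embryos carrying floxed Tie2 alleles without Cre (Tie2flfl) and 6 and 8 from Tie2-cko embryos (Nfatcre-Tie2flfl), so that every group carried the floxed alleles. Tie2, encoded by Tek, is the endothelial receptor for angiopoietins, and the Cre is knocked into Nfatc1, a gene of the endocardium, so that cardiomyocytes (CMs) were not the targeted cells. The embryos, of either sex, had mixed 129 and C57/BL6 strain origin, and the hearts came from the same litter, with somite-matched libraries of both genotypes sharing a lane. Where p-values are given they measure the spread between these libraries alone.

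The sarcomere contracts when myosin heads, each a heavy chain with 1 essential and 1 regulatory light chain, pull on actin filaments that troponin and tropomyosin open in response to calcium. Most of these proteins exist as isoforms from separate genes, and the embryonic heart tube is known to mix cardiac, slow skeletal, fast skeletal and smooth muscle isoforms before the adult set is established. Atria and ventricles come to use different light and heavy chains, of which Myl7 and Myh6 are classical atrial and Myl2 and Myh7 classical ventricular genes in the mouse embryo.

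The libraries held between 169361996 and 259775540 UMIs (counted molecules), and 5684 to 10097 cells per library were kept. Values of the 4 libraries are given throughout in the order control 5, Tie2-cko 6, control 7 and Tie2-cko 8. Between 29 and 62 cell barcodes were shared by any pair of libraries (0.238% to 0.521%). Tek itself stood at 0.889, 0.242, 1.28 and 0.221 UMIs per 10000 in the endothelial-like clusters that held every endothelial marker, with the 2 Tie2-cko libraries below the 2 controls, although the counts do not show which part of the transcript the UMIs came from. Ventricular-like CMs separated by library pair, since sub-clusters 2 and 4 held most of them in libraries 5 and 6 and sub-clusters 0, 1 and 12 in libraries 7 and 8. Both library pairs contain 1 library of each genotype.

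Of the CMs, 3110, 1400, 3626 and 4464 were kept per library. They were sub-clustered with the 37 genes, 63 other sarcomere genes and Tek left out, so that isoform use did not draw the classes, and the sub-clusters were named from markers that include none of the 37. Ventricular-like CMs (Irx4, Hey2, Mpped2, Cited1) numbered 1794, 836, 1985 and 2411, atrial-like CMs (Nr2f1, Nr2f2, Stard10, Sln) 579, 204, 567 and 868, and CMs like the outflow tract (OFT, Sema3c, Tdgf1) 260, 121, 450 and 651. The class like the atrioventricular canal (AVC, Tbx2, Bmp2, Msx2) held 180, 63, 318 and 305 cells. CMs like the sinus venosus (SV), the inflow that gives rise to the sinus node, numbered 165, 75, 146 and 108. The SV-like cluster expressed the atrial marker list as much as its own, and its name rests on Shox2, Vsnl1 and Hcn4 among its leading genes. Markers of skeletal muscle precursors summed to at most 0.04 UMIs per 10000 in any CM class, which bears on the skeletal isoforms described here. Classes are clusters of the same cells, and differences between them are therefore descriptions without a test.

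A level is given in UMIs per 10000, as the mean over a library's cells, and "apart" is used where all 4 libraries of one class lie above all 4 of another. In at least 1 CM class 33 of the 37 genes reached 1 UMI per 10000, the exceptions being Myh7b, Xirp1, Myom2 and Myoz2. Among the 33, 21 differed at least 2-fold between their highest and lowest class and 12 by less. The highest class was the AVC for 11, the atrium for 9, the OFT for 8, the ventricle for 4 and the SV for 1, whereas the SV was the lowest class for 13. Summed over the 37 genes, sarcomere transcripts made up 910, 879, 876 and 831 UMIs per 10000 in ventricular-like CMs and 1084, 1081, 1047 and 1010 in atrial-like CMs. The sum was 796, 631, 827 and 937 in SV-like CMs, below the atrial-like sum of the same library throughout. The 8 mesenchymal markers summed to 2.19, 3.22, 1.61 and 0.387 in the SV-like CMs and to at most 0.263 in the atrial-like CMs, and the part of such transcripts in the SV-like levels was not tested. The SV-like sum was highest in library 8, where that marker sum was lowest.

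**Figure D1:**
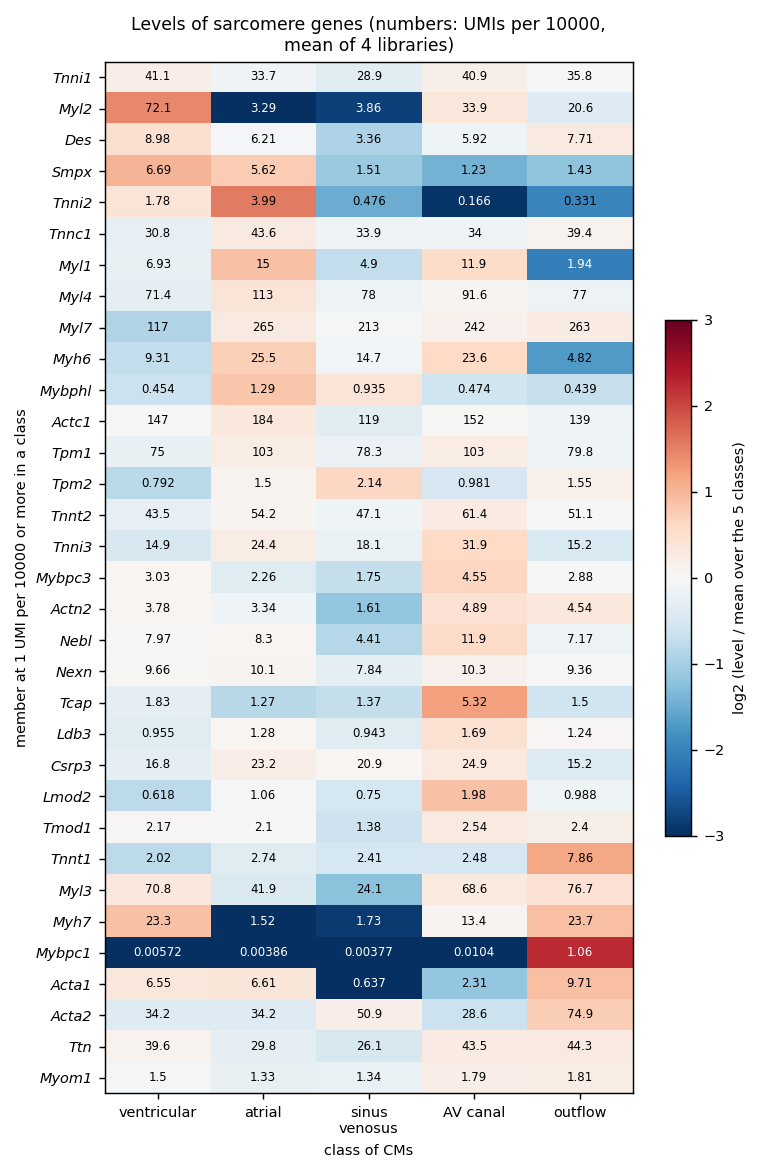
Mean level over the 4 libraries (UMIs per 10000, printed in each cell) of the 33 genes that reached 1 in a CM class. The colour shows each level relative to the gene's mean over the CM classes, on a log scale. Myl2 is highest in the ventricular-like column, Myh7 and Mybpc1 are highest in the OFT-like column, and many genes are lowest in the SV-like column.

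Against ventricular-like CMs, 5 of 34 genes above the floor of 0.1 UMIs per 10000 were at least 2-fold higher and apart in atrial-like CMs (Tnni2, Myl1, Myl7, Myh6, Mybphl), where 2.45% of all genes were, and 3 were lower (Myl2, Myh7, Myoz2), where 1.61% of all genes were. In SV-like CMs 1 gene was higher than in ventricular-like CMs (Tpm2, 8.21% of all genes) and 8 were lower (Tnni2, Myl2, Myl3, Myh7, Acta1, Actn2, Des, Smpx, 3.41% of all genes). AVC-like CMs had 5 genes higher (Tnni3, Myl7, Myh6, Tcap, Lmod2, 10.7% of all genes) and 4 lower (Tnni2, Myl2, Acta1, Smpx, 6.04% of all genes). OFT-like CMs had 4 of 35 higher (Tnnt1, Myl7, Mybpc1, Acta2, 8.76% of all genes) and 5 lower (Tnni2, Myl1, Myl2, Smpx, Myoz2, 5.89% of all genes). The median log2 difference from ventricular-like CMs was 0.06 in atrial-like, −0.36 in SV-like, 0.30 in AVC-like and 0.09 in OFT-like CMs, beside −0.03, 0.14, 0.18 and 0.09 over all genes. In the direct comparison of SV-like with atrial-like CMs, no gene was higher (5.16% of all genes) and 5 were lower (Tnni2, Myl1, Acta1, Actn2, Smpx, 1.58% of all genes), with a median of −0.41 beside 0.15 over all genes.

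The 250 bases before the start of Myl7, Myh6, Myh7 and Mybpc1 are given because the class patterns of these genes differ, Myl7 being abundant throughout, Myh6 atrial, Myh7 shared by the ventricle and the OFT, and Mybpc1 of the OFT. They are RefSeq sequences of GRCm38.p6 (mm10), minus strand, at chr11:5898783-5899032, chr14:54966608-54966857, chr14:54994627-54994876 and chr10:88605153-88605402. Capitals mark the CArG box, the binding motif of serum response factor, and a sequence without capitals holds none.
Myl7: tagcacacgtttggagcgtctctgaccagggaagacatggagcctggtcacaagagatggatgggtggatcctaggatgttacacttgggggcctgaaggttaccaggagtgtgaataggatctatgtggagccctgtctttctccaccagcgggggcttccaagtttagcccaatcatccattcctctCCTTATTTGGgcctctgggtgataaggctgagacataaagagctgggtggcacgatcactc
Myh6: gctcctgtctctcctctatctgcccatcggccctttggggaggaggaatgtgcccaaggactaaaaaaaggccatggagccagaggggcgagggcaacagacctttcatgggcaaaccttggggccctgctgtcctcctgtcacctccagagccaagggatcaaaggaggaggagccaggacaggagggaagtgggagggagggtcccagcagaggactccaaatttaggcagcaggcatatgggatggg
Myh7: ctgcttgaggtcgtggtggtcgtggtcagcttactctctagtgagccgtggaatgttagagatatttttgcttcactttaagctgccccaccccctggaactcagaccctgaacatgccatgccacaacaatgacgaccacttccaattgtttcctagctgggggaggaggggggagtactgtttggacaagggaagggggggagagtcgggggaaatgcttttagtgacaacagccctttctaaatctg
Mybpc1: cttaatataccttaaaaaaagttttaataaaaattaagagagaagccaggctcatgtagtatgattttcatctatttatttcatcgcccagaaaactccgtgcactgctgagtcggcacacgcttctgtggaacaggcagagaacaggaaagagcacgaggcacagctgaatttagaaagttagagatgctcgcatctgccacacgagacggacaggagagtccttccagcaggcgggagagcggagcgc

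A RefSeq promoter, from 250 bases before to 50 after the start, was matched for 32 of the 37 genes, all but Myom2, Nexn, Tcap, Tnni2 and Xirp1. The Myl2 start of that table lies 7762 bases from the nearest GENCODE coding start, so that its match is uncertain. With both strands searched, the CArG box was in 7 of the 32 (Acta1, Actc1, Ldb3, Myl3, Myl7, Myom1, Nebl, 21.9%) and in 1.81% of the 27025 genes with a promoter. The MEF2 site was in 3 (Mybpc3, Myoz2, Ttn, 9.38%) and in 3.7% of all. The 7 genes with a CArG box did not share 1 class pattern, since Myl7, Myl3, Acta1 and Actc1 had their highest means in atrial-like, OFT-like, OFT-like and atrial-like CMs. These matches describe letters in a window and not binding.

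Of the regulatory light chains, which tune the action of the myosin head, Myl2 encodes the ventricular and Myl7 the atrial form. The Myl2 level was 81.3, 70.5, 70.6 and 66 in ventricular-like CMs, and 4.36, 2.21, 3.77 and 2.83 in atrial-like CMs. AVC-like CMs held 38.6, 29.8, 36.5 and 30.8 and OFT-like CMs 26.1, 23.9, 18.3 and 14.2. Each of these classes was apart from the next, in the order ventricular, AVC, OFT and atrial, while SV-like CMs (2.59 to 4.96) overlapped the atrial-like range. In red blood cells, which do not make sarcomeres, Myl2 stood at 1.79, 0.958, 2.96 and 2.35, which overlaps the atrial-like and SV-like ranges. Within each library the atrial-like level was above that of red blood cells.

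Myl7 was abundant in every class. It was lowest in ventricular-like CMs at 124, 119.9, 110.4 and 115, and atrial-like CMs held 269.8, 259.8, 254 and 277. OFT-like CMs were at 294, 266, 244 and 248, a range that overlapped the atrial-like one. The share of Myl2 among the UMIs of both regulatory light chains was 37.8%, 35.4%, 39.5% and 36.5% in ventricular-like CMs, a mean of 37.3% ± 1.74 (SD, n = 4). In atrial-like CMs it was 1.61%, 0.924%, 1.35% and 1.09%. Myl7 thus accounted for more UMIs than Myl2 also in ventricular-like CMs of every library. AVC-like CMs lay between both chambers at 13.5%, 10.7%, 14.9% and 10.54% and OFT-like CMs at 8.82%, 7.36%, 7.5% and 5.87%, while the SV-like mean was 1.55% ± 0.369.

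The Myl2 share also varied between the single cells of a class. Among ventricular-like CMs with at least 10 UMIs of both chains the median Myl2 share per cell was 40.2%, 38.3%, 39.8% and 37.5%, with 10th and 90th percentiles between 23.2% and 56.7%. AVC-like CMs were broader, with medians of 12.2%, 8.18%, 14.2% and 7.24% and percentiles from 0.52% to 41.8%. Cells were first thinned at random to the same 5500 UMIs and shallower cells were left out, and counting error widens these ranges.

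The essential light chains bind the neck of the myosin head. Myl4 encodes the atrial and embryonic form, Myl3 the ventricular and slow skeletal form and Myl1 the fast skeletal form. Myl4 was at 111, 112, 115 and 114 in atrial-like and 69.7, 68.8, 73.7 and 73.2 in ventricular-like CMs, apart between both classes. Its share among the essential light chain UMIs was 66.1% ± 2.14 in atrial-like and 48.2% ± 1.27 in ventricular-like CMs. Myl3 stood at 73, 69.3, 69.8 and 71.3 in ventricular-like CMs and reached 87.6, 78.2, 73.1 and 68 in OFT-like CMs. SV-like CMs had the least Myl3, 22.5, 11.8, 28.2 and 34, below all libraries of every other class, which left Myl4 a share of 70.6%, 83%, 67.5% and 67.4%.

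Myl1 was highest in atrial-like CMs at 15.6, 16, 15.6 and 12.7, and ventricular-like CMs held 7.73, 7.64, 6.45 and 5.9. In OFT-like CMs Myl1 was at 2.28, 2.1, 1.8 and 1.6. The atrial-like, ventricular-like and OFT-like ranges did not overlap, and the share of this fast skeletal isoform was 9.21%, 4.65% and 1.24% of essential light chain UMIs in these classes.

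**Figure D2:**
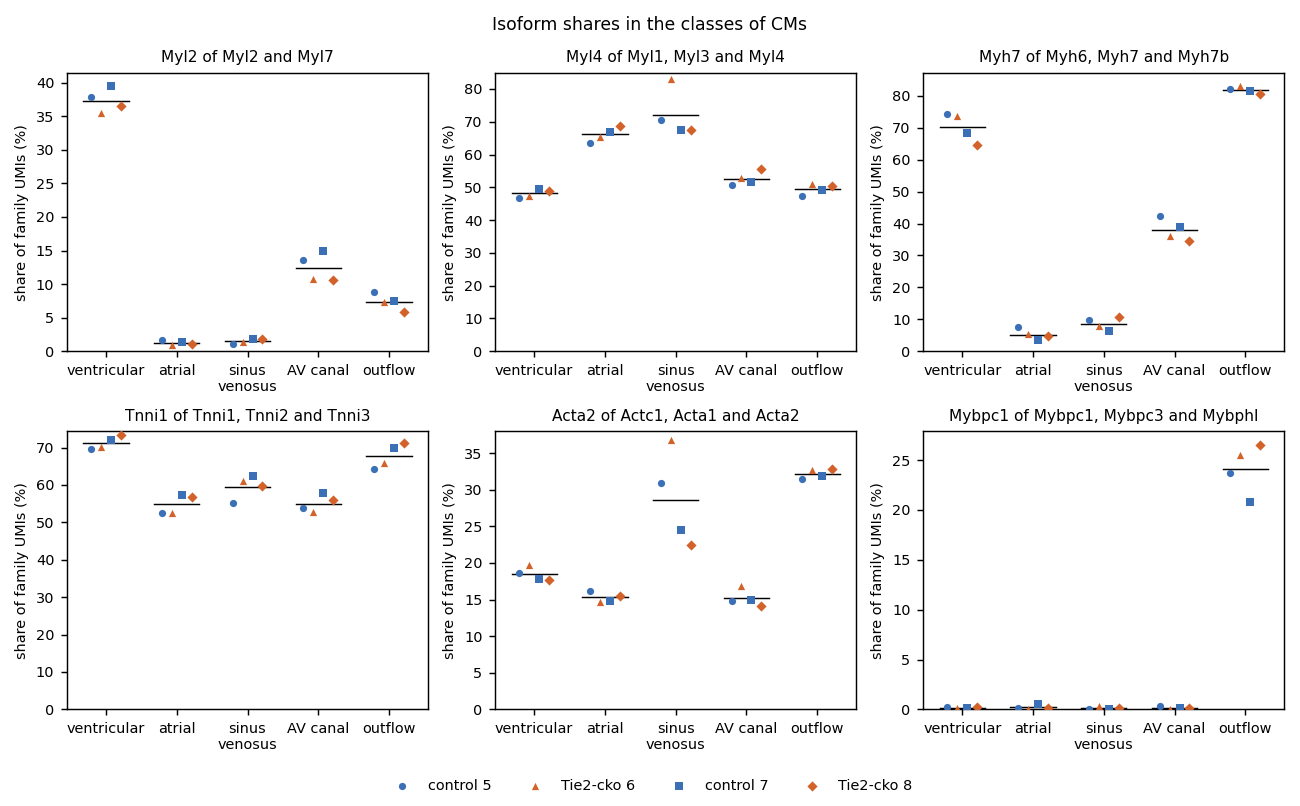
Share of family UMIs (percent) taken by Myl2, Myl4, Myh7, Tnni1, Acta2 and Mybpc1 in the 5 CM classes, 1 isoform per panel. Points are single libraries in the order control 5, Tie2-cko 6, control 7 and Tie2-cko 8, with a line at their mean. Myl2 takes 35.4% to 39.5% of regulatory light chain UMIs in ventricular-like and at most 1.61% in atrial-like CMs, and Mybpc1 is visible in OFT-like CMs alone among the 5 classes.

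The heavy chain genes Myh6 and Myh7 lie side by side on the minus strand of chromosome 14 (GRCm38, Myh6 chr14:54941921-54966927 and Myh7 chr14:54970684-54994626). Myh6, the fast α chain, was lowest in OFT-like CMs at 5.83, 5.83, 3.72 and 3.9. Ventricular-like CMs held 9.78, 9.47, 8.33 and 9.66 and atrial-like CMs 29.7, 29.7, 23.4 and 19.4. These 3 ranges were apart from each other, and AVC-like CMs (17.9 to 31.1) overlapped the atrial-like range.

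Myh7, the slow β chain, took the opposite order. It was at 28.5, 28.3, 17.9 and 18.6 in ventricular-like and 29.2, 32.1, 16.6 and 16.9 in OFT-like CMs, which overlapped. Atrial-like CMs held 2.39, 1.83, 0.891 and 0.984 and SV-like CMs 2.42, 2.29, 0.893 and 1.32, both below every ventricular-like library. Libraries 5 and 6 exceeded libraries 7 and 8 in each of the 5 classes, whereas within either pair the order of the genotypes varied by class.

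As a share of heavy chain UMIs, Myh7 made up 74.3%, 73.7%, 68.3% and 64.8% in ventricular-like CMs and 82.1%, 83.1%, 81.5% and 80.7% in OFT-like CMs, apart from each other. The atrial-like mean was 5.24% ± 1.7 and the SV-like mean 8.67% ± 2.07. AVC-like CMs were mixed at 42.5%, 36.2%, 38.8% and 34.7%. Per cell, the AVC-like median share was 28.6%, 10.3%, 26.5% and 18.2%, with a 10th percentile of 0 and a 90th between 72.2% and 84.0%, so that cells with mostly Myh6 and cells with mostly Myh7 were both present. Left out were 18, 9, 114 and 111 AVC-like cells, shallower than 5500 UMIs or with under 10 UMIs of Myh6 and Myh7 together.

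Myh7b, the slow-tonic chain, was low in every class. The AVC-like values were 0.0884, 0.114, 0.0467 and 0.0694 and the ventricular-like mean was 0.0543. Red blood cells averaged 0.0351, but endothelial-like cells 0.0042 and epicardial-like cells 0.00482, below red blood cells. With cells thinned to the same 5500 UMIs, 5.65%, 6.78%, 3.24% and 2.98% of AVC-like CMs, 2.28% to 3.17% of ventricular-like CMs, 1.75% to 2.48% of red blood cells and 0% to 0.215% of endothelial-like cells held a Myh7b UMI. Without thinning these ranges were 9.12% to 18.3%, 11.7% to 24.9%, 5.18% to 17.3% and 0.203% to 0.906%.

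**Figure D3:**
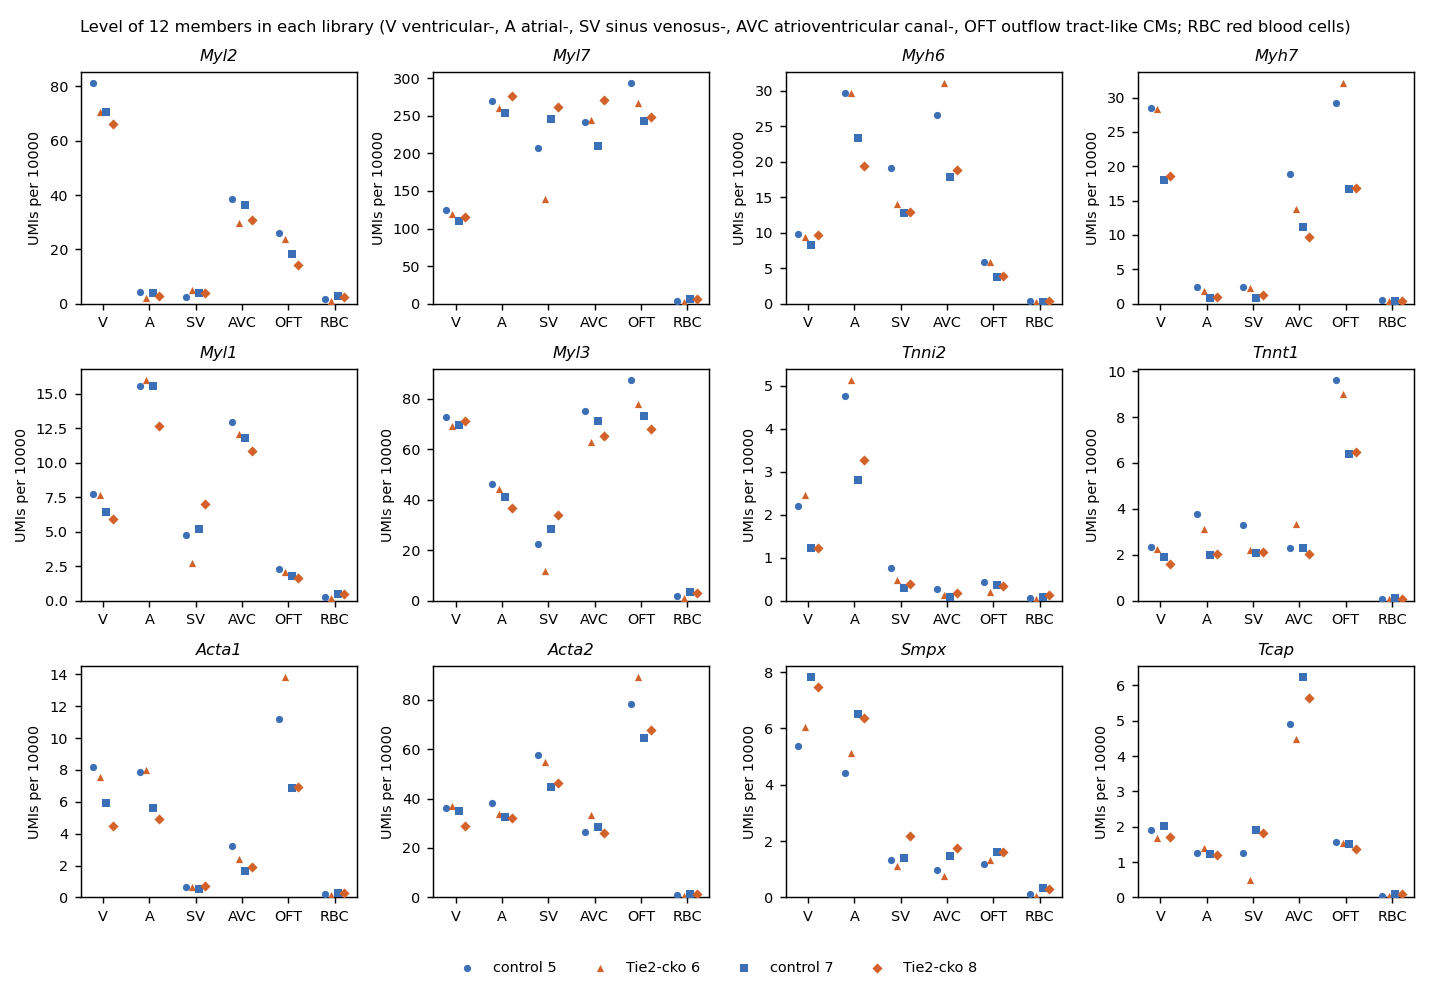
Level (UMIs per 10000, linear axis) of 12 sarcomere genes in the 5 CM classes and in red blood cells, with 1 point per library coloured by genotype. Myl2 and Myh7 differ far more between classes than between the libraries of a class, and Myh7 of libraries 5 and 6 lies above that of 7 and 8 in every CM class.

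Troponin I, the inhibitory subunit, is encoded by Tnni1 (slow skeletal and embryonic), Tnni2 (fast skeletal) and Tnni3 (cardiac). Tnni1 led in every class, at 40.5, 38.1, 42.7 and 43.2 in ventricular-like CMs, where its share was 69.5%, 70.3%, 72% and 73.3%. In atrial-like CMs the share was 54.8%, and the difference of 16.4 percentage points (SD 1.28, n = 4) was positive in each library. The cardiac isoform Tnni3 was highest in AVC-like CMs at 33.5, 30.2, 32.3 and 31.4, against 15.6, 14.1, 15.4 and 14.4 in ventricular-like CMs. Its share of troponin I was 44.7% in AVC-like and 25.7% in ventricular-like CMs.

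The fast skeletal Tnni2 was highest in the CMs of both chambers. Its level was 4.75, 5.14, 2.8 and 3.27 in atrial-like CMs and 2.2, 2.45, 1.22 and 1.23 in ventricular-like CMs. AVC-like CMs averaged 0.166 and OFT-like CMs 0.331, beside 0.080 in red blood cells. In either chamber libraries 5 and 6 were above libraries 7 and 8. In cells thinned to 5500 UMIs, 55.8%, 62.2%, 48.2% and 49.8% of atrial-like and 10.7%, 3.39%, 4.21% and 7.95% of AVC-like CMs held a Tnni2 UMI, against 4.16%, 1.24%, 3.12% and 2.92% of red blood cells. Without thinning these ranges were 72.1% to 90.2%, 9.43% to 26.7% and 10.7% to 16.7%.

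The other troponins varied less, apart from Tnnt1. Tnnt2, the cardiac troponin T that anchors the complex to tropomyosin, lay between a mean of 43.5 in ventricular-like and 61.4 in AVC-like CMs, and Tnnc1, the calcium-binding troponin C, between 30.8 and 43.6. Slow skeletal Tnnt1 was at 9.63, 8.99, 6.37 and 6.47 in OFT-like CMs and 2.32, 2.25, 1.91 and 1.6 in ventricular-like CMs. Its share of troponin T was 14.1%, 13.8%, 13% and 13.4% in OFT-like CMs, while the mean share in the other classes lay between 3.87% and 4.66%. The OFT-like share was above that of every library of the other 4 classes.

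Mybpc1, the slow skeletal myosin-binding protein C that crosslinks thick filaments, was a transcript of OFT-like CMs. It was at 1.27, 1.38, 0.706 and 0.896 in OFT-like CMs and at means of 0.00572, 0.00386, 0.00377 and 0.0104 in ventricular-like, atrial-like, SV-like and AVC-like CMs, beside 0.00475 in red blood cells. In cells thinned to 5500 UMIs, 40.1%, 40%, 27.9% and 29.4% of OFT-like CMs and 0%, 0%, 0.164% and 0% of red blood cells held a Mybpc1 UMI. Without thinning these were 62.3%, 69.4%, 41.6% and 48.5% of OFT-like CMs and 0% to 1.1% of red blood cells. Thinning left out 8, 11, 17 and 22 shallower OFT-like CMs and 17, 20, 48 and 10 red blood cells, and the median depth was 18356, 35597, 13466 and 16054 UMIs in OFT-like CMs and 32884, 60281, 22799 and 32470 in red blood cells.

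Cardiac Mybpc3 was present in all classes, from 1.75 in SV-like to 4.55 in AVC-like CMs, so that Mybpc1 took 23.7%, 25.5%, 20.8% and 26.6% of the myosin-binding protein UMIs of OFT-like CMs. Mybphl, a myosin-binding protein H-like gene of the atria and conduction system, was at 1.23, 1.41, 1.27 and 1.25 in atrial-like CMs and averaged 0.935 in SV-like and 0.454 in ventricular-like CMs. Its share was 32% and 34.4% in the first 2 of these classes and between 9.19% and 12% in the others.

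The actins followed another pattern. Cardiac Actc1 dominated, from 119 in SV-like to 184 in atrial-like CMs. Smooth muscle Acta2 was highest in OFT-like CMs at 78.3, 89.3, 64.3 and 67.7, followed by SV-like CMs at 57.7, 54.8, 44.6 and 46.4, with means of 34.2, 34.2 and 28.6 in ventricular-like, atrial-like and AVC-like CMs. The OFT-like and SV-like ranges were apart. The 4 smooth muscle markers (Myh11, Cnn1, Tagln, Myocd) summed to 24.9, 29.5, 25.7 and 28.9 in OFT-like and 17.6, 18.6, 11.4 and 15.6 in SV-like CMs, and to between 7.29 and 16.4 in the other classes. Acta2 made up 31.5%, 32.7%, 31.9% and 32.8% of the actin UMIs in OFT-like and 30.9%, 36.8%, 24.5% and 22.5% in SV-like CMs.

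Skeletal Acta1 was the reverse in the SV. It stood at 0.669, 0.634, 0.506 and 0.741 in SV-like CMs against 7.89, 8.0, 5.61 and 4.95 in atrial-like CMs and 11.2, 13.9, 6.85 and 6.91 in OFT-like CMs. After thinning, 18.6%, 11.8%, 19.1% and 19% of SV-like CMs held an Acta1 UMI, compared with 85.2%, 85.5%, 82.5% and 74.7% of ventricular-like CMs and 11.4%, 5.38%, 14.1% and 8.77% of red blood cells. Without thinning these were 30.7% to 38.2%, 93.3% to 96.4% and 35.9% to 45.8%. Thus SV-like CMs combined smooth muscle actin with little skeletal actin and little Myl3. Tnni2 was at least 2-fold below the ventricular-like level in SV-like, AVC-like and OFT-like CMs alike.

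Tropomyosin blocks the myosin sites of actin. Tpm1 led throughout, from 75 in ventricular-like to 103 in atrial-like CMs. Tpm2 was at 2.53, 2.53, 1.98 and 1.51 in SV-like CMs and 0.792 on average in ventricular-like CMs, with shares of tropomyosin UMIs of 2.53% and 1.03%. The 8 mesenchymal markers had their highest mean sums of the 5 classes in SV-like and OFT-like CMs, and their part in the Tpm2 level was not tested.

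Of the filament and Z-disc genes, the giant spring titin (Ttn) averaged 26.1 in SV-like and 44.3 in OFT-like CMs, at the extremes of the 5 classes. The actin crosslinker Actn2 stood at 1.42 to 1.81 in SV-like CMs and averaged 3.78 in ventricular-like and 4.89 in AVC-like CMs. The intermediate filament gene Des ranged from 3.36 in SV-like to 8.98 in ventricular-like CMs, and the nebulin relative Nebl from 4.41 in SV-like to 11.9 in AVC-like CMs. All 4 therefore had their lowest mean in SV-like CMs. Nexn, Csrp3, Ldb3, Tmod1 and Myom1, which encode nexilin, muscle LIM protein, cypher, tropomodulin and myomesin, differed less than 2-fold between classes. Myom1 took at least 99.1% of M-band UMIs in every class and library, Myom2 of the adult M-band being at most 0.0147 in any of them.

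Several small sarcomere genes separated the AVC from the chambers. Tcap, the titin cap, was at 4.91, 4.48, 6.25 and 5.65 in AVC-like CMs and at most 2.03 in any library of the other classes. Lmod2, which lengthens thin filaments, stood at 1.65, 1.6, 2.8 and 1.88 in AVC-like and 0.606, 0.581, 0.811 and 0.475 in ventricular-like CMs. Smpx, a small striated muscle protein, took the opposite order, with 5.37, 6.06, 7.84 and 7.47 in ventricular-like, 4.43, 5.14, 6.52 and 6.38 in atrial-like and 0.977, 0.743, 1.46 and 1.76 in AVC-like CMs. The AVC-like range of each of the 3 genes was apart from the ventricular-like range. Myoz2, a calcineurin-binding Z-disc gene, averaged 0.663 in AVC-like, 0.37 in ventricular-like and 0.129 in OFT-like CMs. Xirp1, an actin-binding gene of cell junctions and Z-discs, had class means between 0.338 and 0.647.

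The OFT-like class joined 2 sub-clusters. Sub-cluster 5 (1093 cells) was led by Mybpc1, Tnc and Tdgf1, and sub-cluster 11 (389 cells) by the matrix and mural genes Cthrc1, Rgs5 and Eln. Most sarcomere genes were lower in sub-cluster 11, with Actc1 at 27.8 against 172, Myl7 at 74.8 against 319.9 and Ttn at 15.6 against 52.9. Acta2 was at 37.6 against 86.0 and Mybpc1 at 0.248 against 1.30, whereas Tpm2 was higher (2.44 against 1.30). OFT-like values therefore average cells with much and cells with little of the contractile transcripts. Sub-cluster 11 made up 41, 24, 122 and 202 of the 260, 121, 450 and 651 OFT-like CMs.

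Within the ventricle, sub-cluster 8 carried the trabecular markers (Nppa, Nppb, Bmp10) and held 95, 60, 215 and 238 cells. Myl1 was 17.9, 16, 12.6 and 11.5 there and 7.16, 6.99, 5.7 and 5.28 in the other ventricular-like CMs. Mybphl was 1.07, 0.827, 0.952 and 0.868 against 0.439, 0.556, 0.304 and 0.34, and Tnni2 took the opposite direction with 0.783, 0.649, 0.733 and 0.398 against 2.28, 2.59, 1.28 and 1.32. None of these 3 pairs of ranges overlapped. By the 2-fold rule 2 genes were higher (Myl1, Mybphl, 2.78% of all genes) and 1 lower (Tnni2, 5.5% of all genes), and the median log2 difference was 0.40 beside −0.10 over all genes. Myl2 was 84.8 in the trabecular-like and 71 in the other ventricular-like CMs, so that its share differed little (36% and 37.4%).

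The 63 other sarcomere genes, listed with earlier results of these data known, put the 37 in context. At 1 UMI per 10000 or more in a CM class were 4 of 26 paralogs (Myl6, Myl9, Tpm3, Tpm4), 11 of 24 Z-disc and M-band genes and 6 of 13 assembly genes. Ankrd1, a stretch-responsive partner of titin, averaged 3.71 in ventricular-like, 10.0 in atrial-like, 20.5 in AVC-like and 16.9 in OFT-like CMs. Fhl2, a LIM protein of the titin filament, averaged 4.84 in AVC-like and 1.10 in ventricular-like CMs. The methyltransferase gene Smyd2 had the reverse order, with 1.21 in ventricular-like and 0.248 in AVC-like CMs. Fast skeletal Tnnt3 stayed under the level of 1, but its atrial-like mean of 0.723 compares with 0.0997 in ventricular-like CMs, the same order as fast skeletal Tnni2 and Myl1. Of 38 above the floor, 6 were higher in atrial-like than ventricular-like CMs by the 2-fold rule (Tnnt3, Lmod1, Fhl2, Ankrd1, Trim54, Klhl41), beside the 2.45% of all genes.

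The comparison of genotypes asks whether loss of Tie2 in the endocardium went with other sarcomere transcripts in CMs. No gene of the 37 passed an adjusted p of 0.05 (edgeR's quasi-likelihood test on UMI sums per library, Benjamini-Hochberg over all genes) in all CMs (0.0% of all genes called), in ventricular-like (0.0%), atrial-like (0.0%), joint SV-like and AVC-like (0.0%) or OFT-like CMs (0.00871%). At an unadjusted p under 0.05 there was 1 of 37 in all CMs, 0 of 36 in ventricular-like, 1 of 35 in atrial-like, 1 of 35 in SV-like and AVC-like and 0 of 36 in OFT-like CMs, where 0.429%, 0.657%, 0.814%, 0.759% and 1.44% of all genes were. DESeq2 called none of the 37 either. The median log2 fold change of Tie2-cko over control was −0.07, −0.08, −0.09, −0.09 and −0.01 in the same order, beside 0.01, 0.01, 0.00, 0.00 and 0.00 over all genes, and 26 of 37, 28 of 36, 27 of 35, 29 of 35 and 20 of 36 genes were below 0. These figures moved with single libraries. In ventricular-like CMs the median became −0.18 with 30 of 36 below 0 without library 6, and 19 of 36 were below 0 without library 5 or without library 8. Atrial-like CMs had 34 of 36 below 0 without library 6 and 19 of 36 without library 5 or without library 8. In joint SV-like and AVC-like CMs the direction turned, with a median of 0.01 and 17 of 36 below 0 without library 6, against −0.27 and 33 of 36 without library 8. That joint class held 165, 75, 146 and 108 SV-like and 180, 63, 318 and 305 AVC-like cells. The part of this changing mix in the turn was not tested. In OFT-like CMs the median was 0.12 without library 5 and 0.10 without library 8, but −0.17 without library 6 and −0.11 without library 7. The genes of a cell are not independent, so that these counts carry no test.

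**Figure D4:**
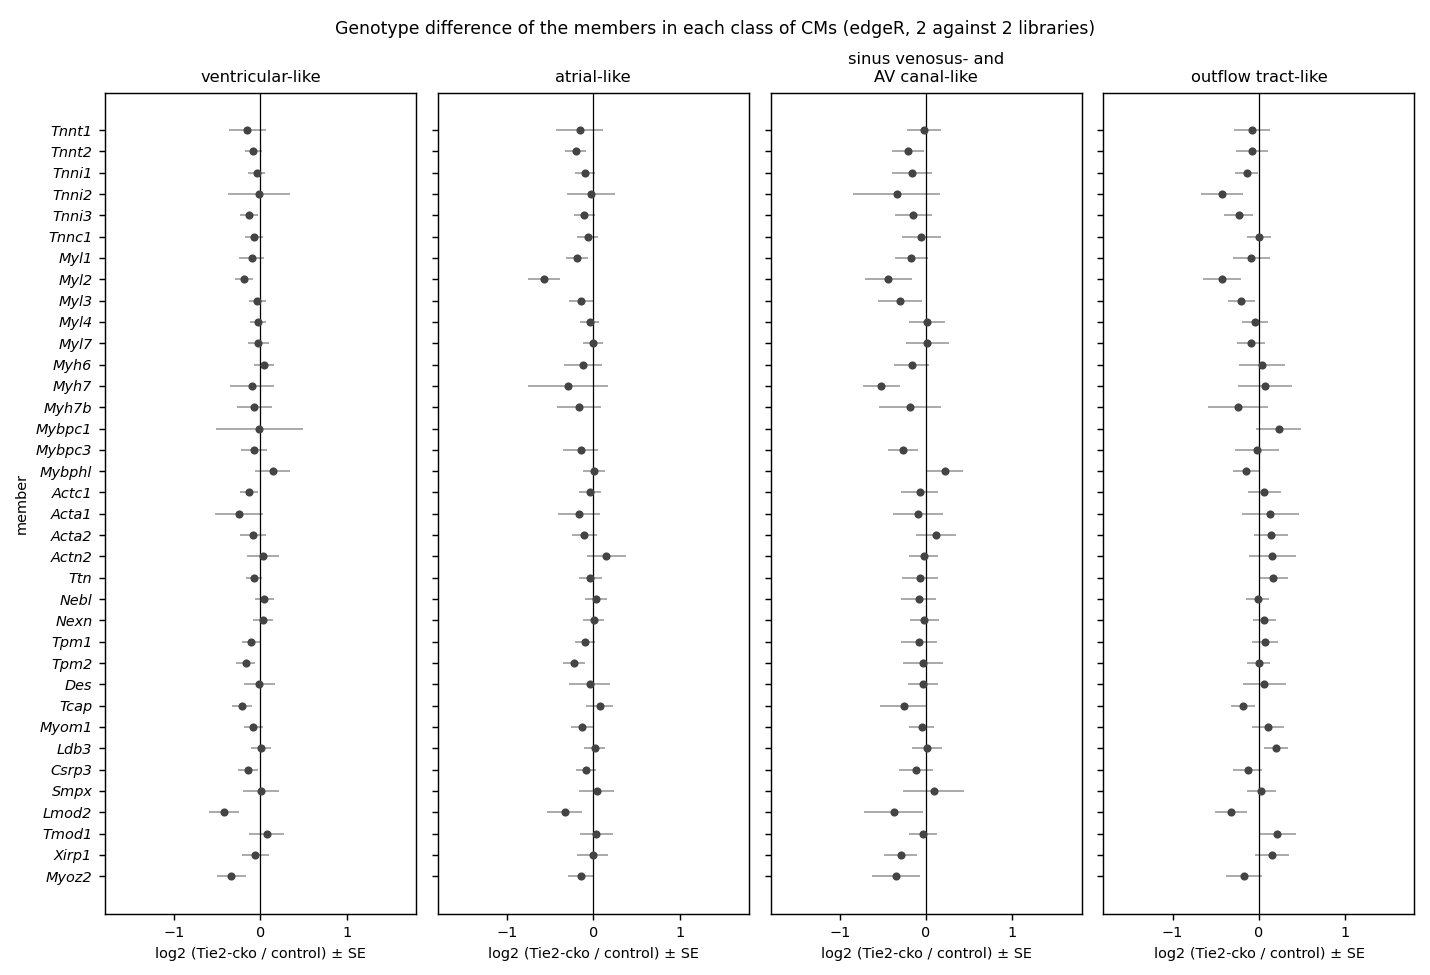
Log2 fold change of Tie2-cko over control with its standard error (edgeR, 2 libraries per genotype) for 36 of the 37 genes, all but Myom2, in 4 CM classes. Points lie near 0 for most genes and Myl2 is below 0 in each of the 4 panels, with no gene past the adjusted threshold.

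Myl2 was the 1 gene of the 37 with an unadjusted p under 0.05 in atrial-like CMs. Its levels, given above for each library, lay lower in Tie2-cko than in control without overlap in ventricular-like, atrial-like and AVC-like CMs, although library 6 and library 7 differed little in ventricular-like CMs (70.5 and 70.6). The log2 fold change was −0.19 ± 0.10 (SE) in ventricular-like CMs (unadjusted p = 0.119, adjusted p = 1.0, edgeR) and −0.57 ± 0.19 in atrial-like CMs (unadjusted p = 0.0199, adjusted p = 1.0, edgeR). In OFT-like CMs it was −0.43 ± 0.22 (unadjusted p = 0.0891, adjusted p = 1.0, edgeR). SV-like CMs had the opposite order, with both Tie2-cko libraries above both controls, from 75 to 165 cells. The difference of the genotype effect between atrial-like and ventricular-like CMs was −0.37 ± 0.09 (unadjusted p = 0.00115, adjusted p = 0.497, edgeR with library as a block), which did not pass the threshold, and 0 of 36 genes passed it in that comparison (0.0138% of all genes) while 4 had an unadjusted p under 0.05 (6.08% of all genes). The atrial-like range of Myl2 overlaps that of red blood cells, although within each library the atrial-like level was the higher. Taken from mean levels with the red blood cell level subtracted, the atrial-like Myl2 share was 0.957%, 0.483%, 0.325% and 0.179%. The genotypes then overlapped, control 7 lying below Tie2-cko 6.

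Expressed as a share of regulatory light chain UMIs, Myl2 was lower in Tie2-cko by 2.68 percentage points in ventricular-like, 3.58 in AVC-like and 1.55 in OFT-like CMs. In UMI sums the genotypes did not overlap in these 3 classes, as was so for 5, 11 and 7 of all 23 shares there. With 2 libraries each the exact permutation test cannot give a two-sided p below 0.333 (p = 0.333, adjusted p = 1.0 over 138 shares). Shares with the red blood cell level subtracted were taken from mean levels over cells instead of summed UMIs. In OFT-like CMs these shares were 7.74%, 7.99%, 6.07% and 4.67%, where Tie2-cko 6 lay above both controls. The OFT-like mean levels of Myl2 and Myl7 given above place Tie2-cko 6 above both controls without the subtraction too. The OFT-like separation was thus seen in UMI sums and not in mean levels. In ventricular-like CMs the subtracted shares were 39.8%, 37.1%, 39.4% and 36.9%, and in AVC-like CMs 13.4%, 10.6%, 14.1% and 9.70%, still without overlap.

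The thin filament gene Lmod2 and the Z-disc gene Myoz2 had log2 fold changes below −0.3 in ventricular-like CMs. Lmod2 was at 0.606, 0.581, 0.811 and 0.475, with both Tie2-cko libraries below both controls, and its log2 fold change was −0.42 ± 0.18 (unadjusted p = 0.0535, adjusted p = 1.0, edgeR). Myoz2 was at 0.337, 0.338, 0.462 and 0.344, where the genotypes overlapped, with −0.34 ± 0.17 (unadjusted p = 0.0931, adjusted p = 1.0, edgeR). Mybpc1 over all CMs was higher in Tie2-cko by 0.42 ± 0.11 on the log2 scale (unadjusted p = 0.0115, adjusted p = 1.0, edgeR), at 0.124, 0.139, 0.105 and 0.143. The level over all CMs depends on how many CMs are OFT-like, which were 260, 121, 450 and 651 of 3110, 1400, 3626 and 4464. Within OFT-like CMs the value was 0.23 ± 0.26 (unadjusted p = 0.413, adjusted p = 1.0, edgeR), and the Mybpc1 levels of both genotypes overlapped there.

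Libraries 5 and 6 resembled each other, as did 7 and 8, and no label states such pairs. Differences between the pairs of at least 1.5-fold with no overlap were seen for 3 of 34 genes in ventricular-like CMs (Tnni2, Myh7, Acta1, 2.46% of all genes), 4 of 34 in atrial-like CMs (Tnnt1, Tnni2, Myh7, Acta1, 3.16% of all genes) and 8 of 35 in OFT-like CMs (5.86% of all genes). With the pair as a block, edgeR called 3 genes in all CMs (0.697% of all genes), namely Myoz2 (−0.33 ± 0.07, adjusted p = 0.0075), Lmod2 (−0.39 ± 0.08, adjusted p = 0.00812) and Mybpc1 (0.43 ± 0.07, adjusted p = 0.000718). In ventricular-like CMs the block gave Myoz2 (−0.32 ± 0.07, adjusted p = 0.0196) and Lmod2 (−0.41 ± 0.09, adjusted p = 0.0114), with 0.623% of all genes called. In OFT-like CMs it gave Myl2 (−0.41 ± 0.11, adjusted p = 0.0253) and Lmod2 (−0.34 ± 0.09, adjusted p = 0.0141), with 0.854% of all genes called. Sub-cluster 11, poor in contractile transcripts, was a different part of the OFT-like CMs in each library. Its part in the OFT-like pair and genotype differences was not tested. No gene was called with the block in atrial-like (0.0958%) or joint SV-like and AVC-like CMs (0.0751%). These calls rest on a pairing that no label states.

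Counted without a test, both Tie2-cko libraries lay below both controls for 8 of 34 genes in ventricular-like CMs (6.8% of all genes: Tnnt2, Tnni3, Myl2, Actc1, Tpm2, Tcap, Csrp3, Lmod2) and above them for 1 (Ldb3, 14.3%). In atrial-like CMs 2 of 34 lay below (9.21%: Tnnt2, Myl2) and 0 above (11.4%). AVC-like CMs had 6 of 34 below (11.6%) and 4 above (11.6%), and OFT-like CMs 3 of 35 below (8.09%) and 1 above (19.6%). SV-like CMs had 1 below (Tnnt2, 9.58%) and 1 above (Myl2, 8.9%). The cardiac troponin T gene Tnnt2 was thus below in ventricular-like, atrial-like, SV-like and AVC-like CMs, with 45.4, 43.6, 43.7 and 41.1 in the ventricle and a log2 fold change of −0.08 ± 0.10 there (unadjusted p = 0.441, adjusted p = 1.0, edgeR).

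In the trabecular-like cluster alone, a comparison chosen after seeing the data, 14 of 34 genes lay below both controls in both Tie2-cko libraries (7.83% of all genes) and 0 above (21.7%). These were Tnnt2, Tnni2, Tnni3, Tnnc1, Myl2, Myl3, Myl4, Mybphl, Actc1, Ttn, Tpm1, Tpm2, Lmod2 and Myoz2, from troponins to titin. The summed level of the 37 genes in this cluster was 1195, 1078, 1120.0 and 1025, with both Tie2-cko libraries below both controls. The 5 trabecular markers that name the cluster summed to 279, 199, 248 and 180.01, and the 7 ventricular markers to 44.2, 38.3, 43.01 and 41.7, both also lower in the Tie2-cko libraries, and the part of this shift in the sarcomere values was not tested. By edgeR, no gene passed the adjusted threshold and 4 of 35 had an unadjusted p under 0.05 (1.59% of all genes), with Tnni2 at −0.94 ± 0.16 (unadjusted p = 0.000246, adjusted p = 0.992). The median log2 fold change was −0.18 beside 0.01 over all genes. The smallest library contributed 60 cells to this cluster.

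Outside CMs, transcripts of the 37 genes were found in every cell type. In red blood cells, the median of 30 genes that reached 1 UMI per 10000 in CMs was 2.56%, 1.503%, 4.20% and 4.36% of the CM level of the same library, lowest in library 6 and highest in libraries 7 and 8. With each gene's percent averaged over libraries, the median of the 30 genes was 4.47% in endothelial-like, 4.59% in mesenchymal-like and 4.22% in epicardial-like cells. It was 5.36% in immune or platelet-like and 10.3% in hepatic-like cells, and 35.5% in the clusters of low UMI number. In red blood cells 16 of 23 genes differed at least 1.5-fold between libraries 5 and 6 and libraries 7 and 8 (6.51% of all genes). In the CM classes these were 3 to 8, as given above. Per 10000 UMIs, sarcomere transcripts in red blood cells were thus higher in libraries 7 and 8, 1 of each genotype, than in libraries 5 and 6. Median depth was 32884, 60281, 22799 and 32470 UMIs in red blood cells and 18356, 35597, 13466 and 16054 in OFT-like CMs. The part of depth in these levels and in the subtracted shares above was not tested.

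**Figure D5:**
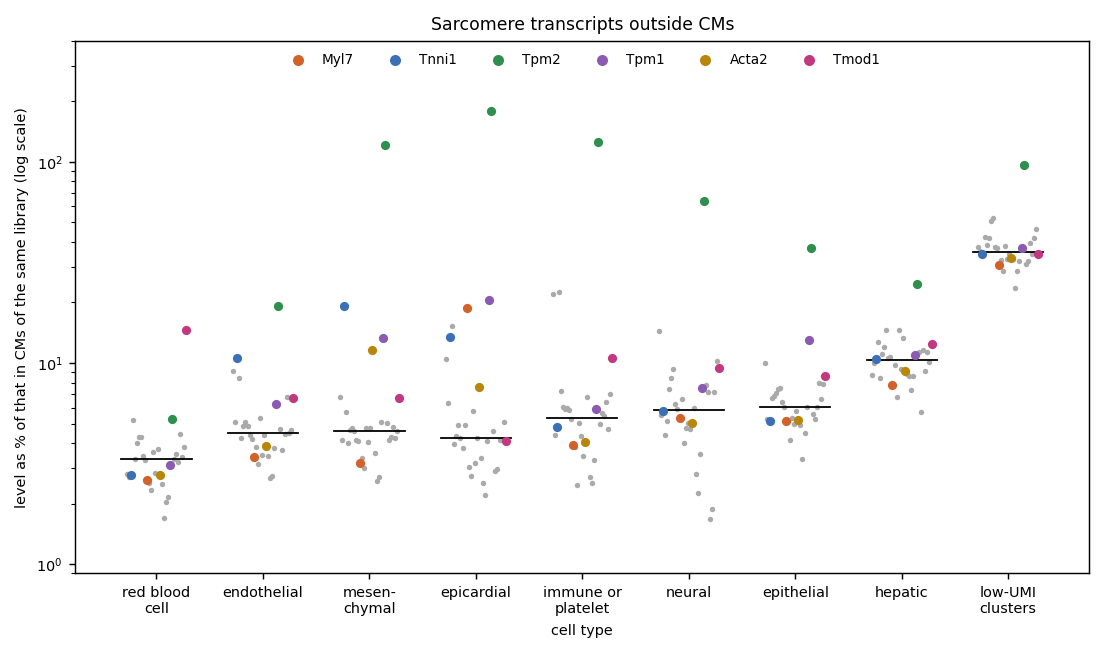
Level of 30 sarcomere genes outside CMs as a percent of the CM level of the same library (mean of the libraries, log axis) in 9 groups of cells, with the black line at the median and 6 genes in colour. Myl7 and Tpm1 in epicardial-like, Tnni1 in mesenchymal-like and Tmod1 in red blood cells stand above the median of their cell type.

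A few genes stood above that common level. Myl7 in epicardial-like cells was at 34.1, 28.4, 32.9 and 34.1, which is 18.9%, 17.4%, 19.7% and 18.7% of the CM level and 8.59 times the level in red blood cells on average (5.27 to 14.9 times). Myl2 of the same cells stood at 2.0 and Actc1 at 4.73, close to the 2.02 and 4.24 in red blood cells, and the CM marker list summed to between 0.718 and 1.32 there against 0.448 to 1.29 in red blood cells. After thinning to 5500 UMIs, at least 99.7% of epicardial-like cells in every library and 85.7%, 50.1%, 87.2% and 87.7% of red blood cells held a Myl7 UMI. Without thinning nearly all cells of both types held one, at least 96.8% of red blood cells, at median depths of 17293 to 36912 and 22799 to 60281 UMIs, and thinning left out 16 to 37 epicardial-like cells per library. Of these 3 genes, Myl7 alone exceeded the red blood cell level in the epicardial-like cells of every library by more than 5-fold.

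Tnni1 was 6.99, 5.54, 9.01 and 8.19 in mesenchymal-like cells, 19.3% of the CM level, and averaged 5.19 in epicardial-like and 4.08 in endothelial-like cells, beside 1.09 in red blood cells. The tropomyosins were also high outside CMs, Tpm1 at 20.5% of the CM level in epicardial-like and 13.3% in mesenchymal-like cells. Tpm2, the only 1 of the 30 that was higher in epicardial-like cells than in CMs, stood there at 2.21, 2.0, 1.7 and 1.8 (179% of the CM level). Tmod1, which caps the pointed end of actin filaments and is also a red cell membrane skeleton gene, was at 14.6% of the CM level in red blood cells, the highest of the 30. Of the defining chamber isoforms, Mybpc1, Myh7 and Myl2 remained at 0.00136, 0.503 and 2.0 in epicardial-like cells.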

How the data were processed

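The deposited files hold UMI counts per gene and barcode, made by the authors using Cell Ranger (6.1.2 by the file header, another version in the methods) against mm10, without normalization. From these, barcodes with at least 500 genes, 1000 UMIs and at most 10% mitochondrial UMIs were kept. Scrublet (scanpy 1.11.5) set thresholds that marked 0, 3, 305 and 1 barcodes, so the top-scored 0.8% per 1000 barcodes were removed instead (982, 285, 664 and 798). Seurat 5.3.0 clustered all cells and then CMs without integration (2000 variable genes, 101 genes left out, 30 components, 20 neighbours, resolution 0.8). Clusters were named from marker lists by thresholds set after they were seen, and unnamed CMs entered the sums over all CMs. Counts were summed per library and class, and genotypes were compared with edgeR 4.0.16 (TMM, filterByExpr, quasi-likelihood test, 2 against 2) and alternatively DESeq2 1.42.0, tested on simulated data. Standard errors were derived from the log2 fold change and its F statistic. Depth was 14878 to 25875 UMIs in the median cell. Named are all 37 genes, other sarcomere genes past a threshold or at 1 UMI per 10000, and others as stated. The members, lists and rules were chosen with earlier results of these data known. Lmod1, Trim54, Klhl41 and Tnnt3 were named after their values were seen.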

Additional observations from a re-analysis of the deposited data

How the results depend on the processing

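The labels number the control libraries 5 and 7 and the Tie2-cko libraries 6 and 8 and so pair none of them, and the block of pairs 5 with 6 and 7 with 8 rests on no label. Alternatives were stricter cell filters, 2 other resolutions, other normalization and filters, DESeq2, a block of the library pairs, and each library left out. The count of sarcomere genes called (0 in each genotype comparison) became 3 in all CMs, 2 in ventricular-like and 2 in OFT-like CMs with the library pair as block. It became 3 for the difference between atrial-like and ventricular-like CMs without the low-count filter (0 to 1 with a library left out: Myh6 without Tie2-cko 6, Myh7 without control 7), and stayed 0 (0 to 0) in the other comparisons with a library left out. Over all genes the counts of 0, 0, 0, 0, 1 and 2 (all CMs, ventricular-like, atrial-like, SV-like with AVC-like, OFT-like and the difference) became 109, 91, 12, 9 and 98 with the block (first 5), and ranged over 0 to 2, 0 to 50, 1 to 20, 0 to 5, 10 to 51 and 0 to 14 with a library left out. Without the low-count filter, 70 of 21898 genes were called for the difference of the genotype effect between atrial-like and ventricular-like CMs. The difference in the Myl2 share between ventricular-like and atrial-like CMs (36.1 percentage points) became 36.8 with mean levels and 37.8 with the red blood cell level also subtracted. It was 34.4 at resolution 0.4 and ranged from 35.4 to 36.6 with a library left out. That of Myl4 (−18.0) became −19.3 with the subtraction (−18.3 to −17.4). Log2 fold changes of Myh7 between genotypes changed sign with the library left out in all CMs (−0.47 to 0.24), and none was called. Alternatives that left out libraries for shares, or treated the trabecular-like cluster apart, were chosen after seeing the data. With 2 libraries per genotype, differences of the size of the library pairs could not be told apart from spread.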

Other observations

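The CMs that received no class name numbered 132, 101, 160 and 121. Sub-cluster 10 among them was led by Cck and Serpinb6b, and sub-cluster 13 by globin genes. Sub-cluster 10 (389 cells) held Ttn at 62.7 and Lmod2 at 1.65, Myl2 at 47.0 and Mybpc1 at 0.359, the second highest Mybpc1 level after the OFT-like sub-cluster 5. These cells were part of the sums over all CMs and of none of the class comparisons.

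Among the ventricular-like sub-clusters, the Ttn level varied widely. It averaged 68.6 in sub-cluster 1 (1546 cells), which was led by Top2a, Prc1 and Mki67, genes of dividing cells, and 9.44 in sub-cluster 12 (348 cells), led by Cdk1, Aurka and Cdc20, genes of mitosis. Actc1 was at 136 and 173 in the same sub-clusters and Myl3 at 64.8 and 77.0. Sub-cluster 0 (2194 cells), led by Hey2 and Mycn, lay between them with Ttn at 29.98. Ttn and the sub-clusters were singled out after their values were seen, and no test was made.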
